A study of Homo sapiens with 6 samples.

Results

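The genes described here encode 48 secreted or shed proteins that are commonly counted in the senescence-associated secretory phenotype (SASP). They were taken by gene symbol from a table of 23228 gene names, and all 48 symbols were present, with IL8 as the older symbol of CXCL8. The samples were SaOS2 cells, a human osteosarcoma line that the study describes as null for RB and p53, carrying a Tet-inducible vector for p21. In the 3 p21 OFF libraries the cells were untreated, and in the 3 p21 ON libraries they had received 1 μg/ml doxycycline for 24 h. All 6 libraries came from the same engineered line, grown in DMEM with serum, and cells without the vector that received the drug were not analysed here, so effects of p21 and of doxycycline cannot be told apart. Values are normalized read counts, that is reads per gene divided by a size factor of the library.

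Cells that stop dividing for good often begin to secrete cytokines, chemokines, growth factors, proteases and their inhibitors. In such cells the inflammatory part of this program is driven mainly by the transcription factors NF-κB and C/EBPβ, often downstream of interleukin-1 signalling, and it usually takes days to develop after a DNA-damaging stimulus. p21, the product of CDKN1A, is an inhibitor of cyclin-dependent kinases that stops the cell cycle. The comparison asks which of these genes changed when p21 was switched on in cells without RB and p53.

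CDKN1A itself had 1257, 1187 and 1355 normalized counts in p21 OFF replicates 1, 2 and 3 and 40470, 43863 and 46739 in p21 ON replicates 1, 2 and 3. The groups did not overlap, and the difference was 5.11 on the log2 scale (adjusted p = 1.12e-19 by limma). Libraries held 12795490 to 21975045 reads on genes. Of the osteoblast lineage markers, RUNX2, SP7, ALPL, COL1A1, SPARC and IBSP were expressed, while COL1A2 and SPP1 had mean values of at most 3.67 and BGLAP had no read. The summed level of the 9 osteoblast markers was 71376 to 74084 in p21 OFF and 72419 to 75639 in p21 ON libraries, a sum made up mostly of ALPL and SPARC. Within the list IBSP, bone sialoprotein, was called lower in p21 ON cells (-0.38, adjusted p = 0.0264 by limma). Of 6 leukocyte markers CD68 and CSF1R reached a mean of 10, and PTPRC, CD14, LYZ and AIF1 had group means of at most 7.42. The summed level of the 6 was 845 to 926 with p21 OFF and 894 to 1005 with p21 ON. Of 3 endothelial markers VWF and PECAM1 reached 10 (summed 62.8 to 69.1 with p21 OFF and 73.1 to 104.5 with p21 ON), and VWF was called higher (0.50, adjusted p = 0.0333 by limma). Of 3 epithelial markers EPCAM reached it (304.7 to 376.8 and 294.6 to 326). The part of other cell types in the results was not tested.

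Of the 48 genes, 23 were expressed at a mean of 10 or more normalized counts over the 6 libraries and 25 were not. The threshold fell in a gap. IGFBP7, with a mean of 14.8, and PLAT, with 16.6, lay just inside it, and NRG1, with 4.50, and CXCL12, with 4.37, just outside. Of the 25 genes below the threshold, 7 had no read in any library and the others had at most 28 reads in all 6 libraries together. A count of 0 in this table need not mean that a gene was not transcribed. MIF, a gene that most cells express and that is named here after its values were seen, was also listed at 0 in all 6 libraries. Exons of IL6, FGF2, MMP1, MMP3, MMP9 and ICAM1 overlap genes on the opposite strand, and the effect of this on their counts was not tested. With p21 ON, the summed level of these 25 genes was 33.3 to 41.9 normalized counts per library, and with p21 OFF it was 32.5 to 35.9.

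**Figure D1:**
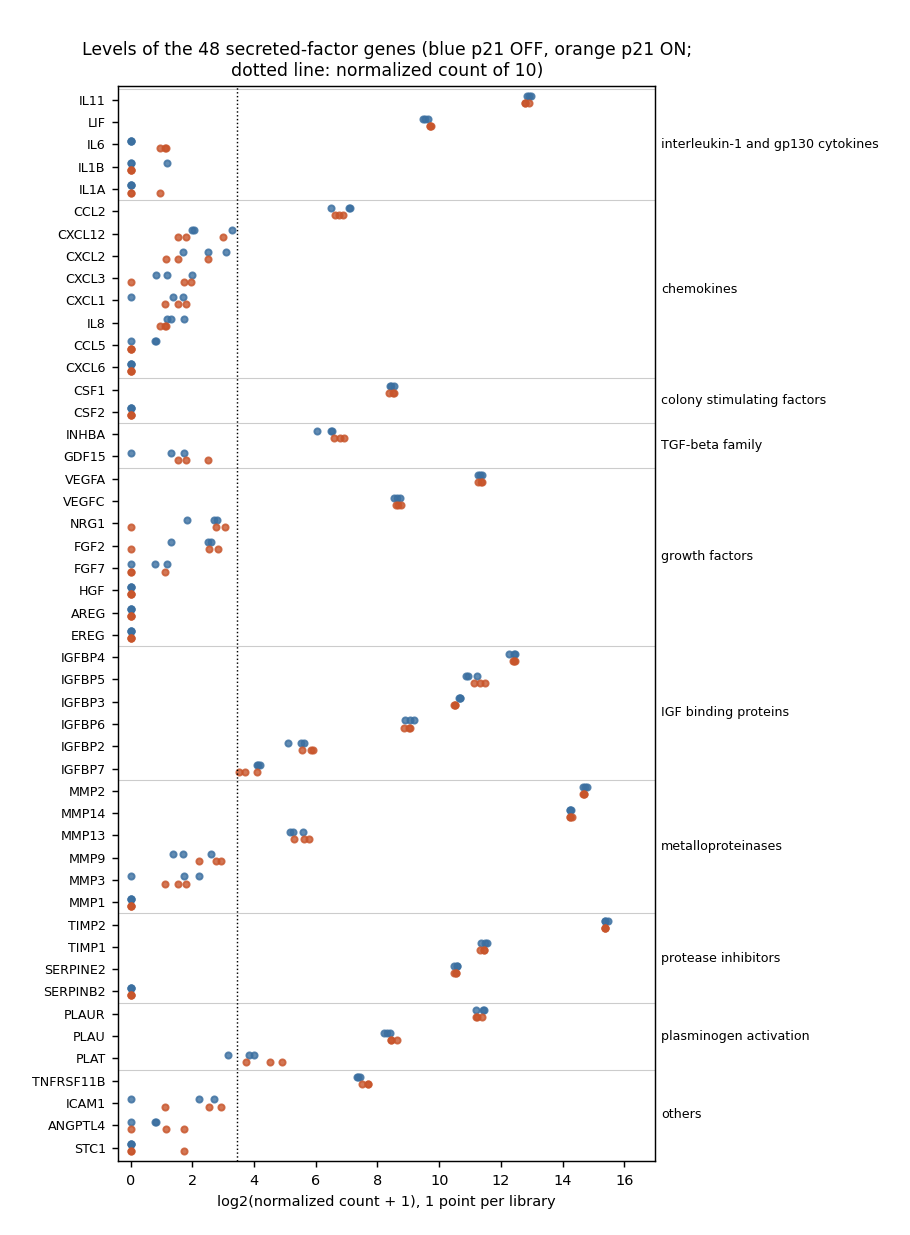
Levels of the 48 genes as log2(normalized count + 1), with 1 point per library, in blue for p21 OFF and in orange for p21 ON, grouped by role. The dotted line marks a normalized count of 10, and 23 genes lie to its right and 25 to its left in the mean. Of the genes to the left, 7 sit at 0 in every library.

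Among the expressed genes, IGFBP5 and INHBA passed the test. Differential expression was tested with limma in all 13255 genes of the table that reached the threshold of 10, and a gene was called when its adjusted p after Benjamini-Hochberg adjustment over all of them was under 0.05. Of all genes tested, 23.2% were called, 10.5% higher and 12.7% lower in p21 ON cells. Of the 23 secreted factors, 2 were called higher (IGFBP5 and INHBA), none was called lower, and 21 were not called, so that 8.7% were called. The number called higher was 0 without p21 ON replicate 1, 0 without p21 ON replicate 3, 1 without p21 OFF replicate 2, 1 without p21 ON replicate 2, and 4 with scaling by library size alone. It was 1 by edgeR and 1 by DESeq2. At an unadjusted p under 0.05 there were 7 of 23 (30.4%), against 36.8% of all genes. Of the 23, 0 were called lower by edgeR and 0 by DESeq2 as well. The median log2 fold change of the 23 genes was 0.0097 (interquartile range -0.07 to 0.22), and that of all genes tested was 0.0056 (-0.14 to 0.17). In the median of the absolute values the secreted factors had 0.10 and all genes 0.15. The 3 p21 ON libraries lay wholly above or wholly below the p21 OFF libraries for 7 of the 23 genes (30.4%), where the share among all genes was 40.4%. These were LIF, INHBA, PLAU and TNFRSF11B above (19.1% of all genes) and IGFBP3, IGFBP7 and TIMP2 below (21.3%). For TIMP2 the nearest p21 OFF and p21 ON libraries were equal in the digits printed below.

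A missed call does not show that a gene stayed the same, so the 95% interval of each difference is given here. For 17 of the 23 genes (73.9%) the whole interval lay between -0.5 and 0.5 on the log2 scale, and the same was true of 70.2% of all genes tested. The 6 genes with wider limits were INHBA, IGFBP2, IGFBP5, IGFBP7, MMP13 and PLAT. All of these except IGFBP5 had a mean under 100. Changes of the size of that of CDKN1A lay far outside every one of the intervals.

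**Figure D2:**
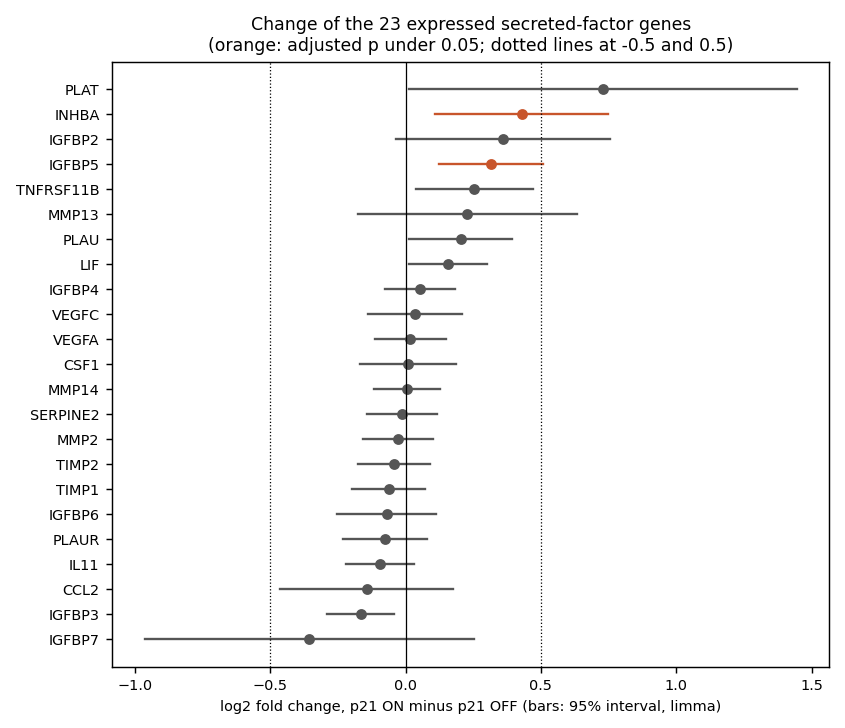
Log2 fold change (p21 ON minus p21 OFF) of the 23 expressed genes with 95% intervals from limma. Orange marks the 2 genes with an adjusted p under 0.05, INHBA at 0.43 and IGFBP5 at 0.32, and the dotted lines stand at -0.5 and 0.5.

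The gp130 cytokines differed widely in level. These are proteins that signal through the shared receptor chain gp130, and IL6, the best known SASP cytokine, had no read in the p21 OFF libraries and 1 read in each p21 ON library. With no read among 55684686, a level of up to 0.0539 CPM (reads scaled to a fixed library total) is allowed in p21 OFF cells. IL11, by contrast, was the most strongly expressed cytokine of the list. Per kilobase of exon it had 2793 normalized counts, the fourth highest of the 48 genes, and IL6 had 0.13. IL11 had 8074, 7433 and 7670 normalized counts with p21 OFF and 6970, 7111 and 7618 with p21 ON. The groups overlapped, and the log2 fold change of -0.10 (95% interval -0.22 to 0.03) was not called. LIF, a cytokine of the same family that acts through the LIF receptor, had 709.6, 788 and 748 normalized counts with p21 OFF and 843, 829.8 and 829.6 with p21 ON. Every p21 ON library was above every p21 OFF library, by 0.16 on the log2 scale (standard error 0.07), and the adjusted p was 0.104 by limma. LIF was called higher when libraries were scaled by size alone (0.20) and with a correction for exonic length (0.20). IL1A and IL1B, the interleukin-1 genes that act upstream of the other cytokines in senescent cells, had 1 read each in the 6 libraries together.

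The chemokines attract leukocytes, and 7 of the 8 were below the threshold. IL8, CXCL1, CXCL2, CXCL3 and CXCL6 attract mainly neutrophils, and their values over single libraries ran from 0 to 7.54. CXCL6 had no read at all, and IL8 had 6 reads in the p21 OFF and 3 in the p21 ON libraries. CXCL1, CXCL2 and CXCL3 are close copies of each other, so reads that fit several of them may be missing from their counts. CXCL12, the ligand of CXCR4, had 15 reads in p21 OFF and 10 in p21 ON libraries, and CCL5 had 2 and 0. CCL2, which attracts monocytes, was the expressed chemokine. It had 138.2, 89.8 and 133 normalized counts with p21 OFF and 116.4, 107.2 and 97.9 with p21 ON. All p21 ON values lay inside the range of the p21 OFF values, and the log2 fold change was -0.14 (95% interval -0.46 to 0.18). CSF1, the macrophage colony-stimulating factor, had mean values of 352 ± 17.1 and 355 ± 20.1 (SD, n = 3 each) without and with p21, and CSF2, its granulocyte-macrophage counterpart, had no read.

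The promoters of these genes are described by their letters. The motifs were chosen after the levels had been seen, so the shares are a description with no test. In each of the 48 genes the 250 bases before the start of the canonical transcript were searched on both strands for GGANNTTCC, the core of many NF-κB sites, for TGANTCA, the AP-1 site, and for TATAAA. The first was present in 10 of the 25 promoters of genes below the threshold (40.0%) and in 1 of the 23 promoters of expressed genes (4.35%), that of CCL2. Among 19894 protein-coding promoters of the same length 3.67% had it, and among the 6245 of all protein-coding genes below the threshold 3.91% had it. Of the 10 matches, 5 lie in related chemokine genes of one cluster and are not independent. The matches stand below with 10 bases on each side (fewer where the start site is nearer) in the direction of the gene, to show that the neutrophil chemokines carry the same bases. Capitals mark the match, and coordinates are those of the printed bases on GRCh37, which is hg19. In CCL5 and CCL2 the match is on the opposite strand and reads GGAANNTCC in the direction of the gene.
IL6, chr7:22766737-22766765, plus strand: atcaaatgtgGGATTTTCCcatgagtctc
IL8, chr4:74606185-74606213, plus strand: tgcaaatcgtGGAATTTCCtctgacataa
CXCL1, chr4:74735022-74735050, plus strand: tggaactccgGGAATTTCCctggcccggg
CXCL2, chr4:74964971-74964999, minus strand: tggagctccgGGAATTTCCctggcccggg
CXCL3, chr4:74904466-74904494, minus strand: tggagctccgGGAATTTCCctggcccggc
CXCL6, chr4:74702296-74702324, plus strand: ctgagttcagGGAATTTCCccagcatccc
CCL5, chr17:34207413-34207441, minus strand: ttgctattttGGAAACTCCccttagggga
CSF2, chr5:131409370-131409398, plus strand: ataagggccaGGAGATTCCacagttcagg
MMP1, chr11:102668892-102668918, minus strand: atatacagagGGAGCTTCCtagctggg
ICAM1, chr19:10381600-10381628, plus strand: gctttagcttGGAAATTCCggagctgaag
CCL2, chr17:32582210-32582238, plus strand: tatcactcatGGAAGATCCctcctcctgc

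The same 9 bases, GGAATTTCC, stood in IL8, CXCL1, CXCL2, CXCL3 and CXCL6, which lie in one cluster on chromosome 4. Counted from -1 at the base before the start site, the matches began between -102 and -67, except in MMP1 at -17 and in ICAM1 at -186. The AP-1 site was found in 6 of the 25 genes below the threshold (24.0%) and in 3 of the 23 expressed ones (13%). Over all protein-coding genes the shares were 6.89% below the threshold and 3.42% among those tested. TATAAA was found in 11 (44%) and in 5 genes (21.7%), where the shares over all protein-coding genes were 16.8% and 4.99%. A match is a description of the letters and does not show that a factor was bound.

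The promoters of IL8 and IL11 show a cytokine with few reads and a strongly expressed one side by side. In both, capitals mark the sites named above: in IL8 an AP-1 site at -137 and the NF-κB core at -91, in IL11 an AP-1 site at -96. TATAAA, found in IL8 at -31 and not found in IL11, is left in lower case. The search was for these exact letters, and IL11 holds the similar letters tatataa near the end of its printed sequence. The IL8 sequence is chr4:74606036-74606285 on the plus strand and that of IL11 chr19:55881832-55882081 on the minus strand of GRCh37.
IL8: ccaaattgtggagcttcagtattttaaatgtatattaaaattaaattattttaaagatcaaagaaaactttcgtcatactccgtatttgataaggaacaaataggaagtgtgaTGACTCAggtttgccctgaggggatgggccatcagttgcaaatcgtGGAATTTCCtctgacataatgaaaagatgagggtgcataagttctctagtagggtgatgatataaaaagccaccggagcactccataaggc
IL11: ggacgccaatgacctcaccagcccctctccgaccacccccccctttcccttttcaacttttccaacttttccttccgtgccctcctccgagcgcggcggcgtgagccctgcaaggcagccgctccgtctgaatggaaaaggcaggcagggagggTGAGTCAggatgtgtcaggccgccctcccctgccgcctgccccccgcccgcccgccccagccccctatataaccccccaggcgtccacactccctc

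**Figure D3:**
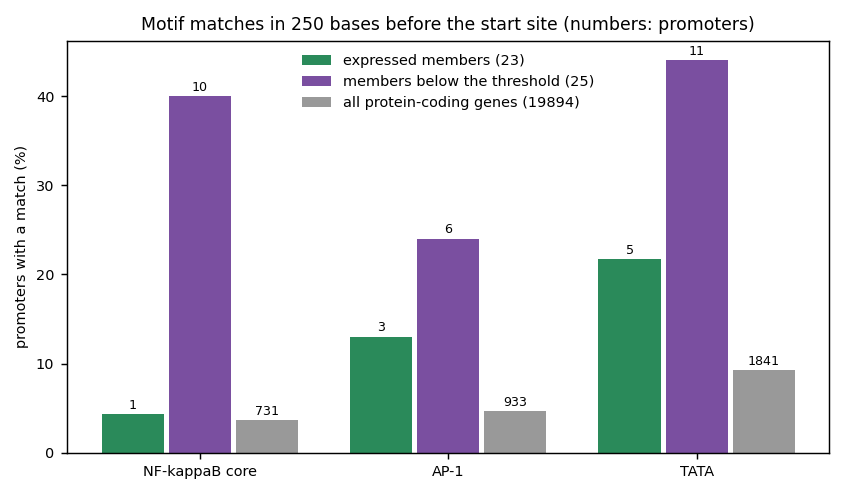
Share of promoters (250 bases before the start site) with a match to the NF-κB core, the AP-1 site and TATAAA, for the 23 expressed members, the 25 members below the threshold and 19894 protein-coding genes, with the number of promoters above each bar. The NF-κB core was found in 10 members below the threshold and in 1 expressed member.

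The IGF binding proteins, which hold insulin-like growth factors outside the cell, were all expressed, 6 of 6. IGFBP5, on chromosome 2 from 217536828 to 217560272 (GRCh37, minus strand), had 1861, 1965 and 2387 normalized counts with p21 OFF and 2888, 2253 and 2588 with p21 ON. The highest p21 OFF library lay above the lowest p21 ON library, so the groups overlapped. The log2 fold change was 0.32 (standard error 0.09, 95% interval 0.12 to 0.51, adjusted p = 0.0182 by limma), a rise of 24.5% (9.02 to 42.1%). IGFBP5 was called higher under each of the 10 alternatives that kept all libraries, but the call was lost when OFF replicate 2 was left out (0.28), and likewise for ON replicate 1 (0.23) and ON replicate 3 (0.31).

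IGFBP3, a p53-responsive member in many cells, had the opposite sign and narrowly missed the threshold. It is singled out here after its values were seen. It had 1647, 1631 and 1593 normalized counts with p21 OFF and 1456, 1468 and 1414 with p21 ON. All p21 ON libraries were below all p21 OFF libraries, the log2 fold change was -0.17 (95% interval -0.29 to -0.04), and the adjusted p was 0.0511 by limma. It was called lower when at least 10 reads were required in every library (adjusted p = 0.0487 by limma).

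The other members of the family were not called. IGFBP4 was the most abundant, with 5321 ± 360 and 5514 ± 154 normalized counts (SD, n = 3 each) without and with p21, and its log2 fold change of 0.05 had a 95% interval from -0.08 to 0.18. IGFBP6 had 529 ± 49.1 and 503 ± 40.0. Neither difference passed the test. IGFBP2 had 47.7, 33.6 and 45.1 normalized counts with p21 OFF and 57.0, 59.7 and 45.6 with p21 ON, a log2 fold change of 0.36 (95% interval -0.03 to 0.75). IGFBP7, the weakest, had 16.3, 17.2 and 16.3 with p21 OFF and 10.5, 12.2 and 16.2 with p21 ON, and its interval ran from -0.96 to 0.25.

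INHBA encodes the βA subunit of activins and inhibin A, secreted dimers of the TGF-β family. It lies on chromosome 7 from 41706766 to 41745432 (GRCh37, minus strand), and it had 64.1, 88.3 and 90.9 normalized counts with p21 OFF and 109.4, 120.6 and 96.0 with p21 ON. Every p21 ON library was above every p21 OFF library, and the log2 fold change was 0.43 (standard error 0.15, 95% interval 0.11 to 0.75). The adjusted p of 0.0494 by limma was just under the threshold. INHBA was not called by edgeR (0.39, adjusted p = 0.0699), by DESeq2 (0.40, adjusted p = 0.126), without a filter on low values (0.43) or with the length correction (0.38). It was also not called without p21 OFF replicate 1 (0.27) or without p21 ON replicate 1 (0.42), 2 (0.35) or 3 (0.51). Over all alternatives its adjusted p ran from 0.0271 to 0.185. GDF15, a distant member of the same family and a stress-induced hormone, had 5 reads in the p21 OFF and 8 in the p21 ON libraries.

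**Figure D4:**
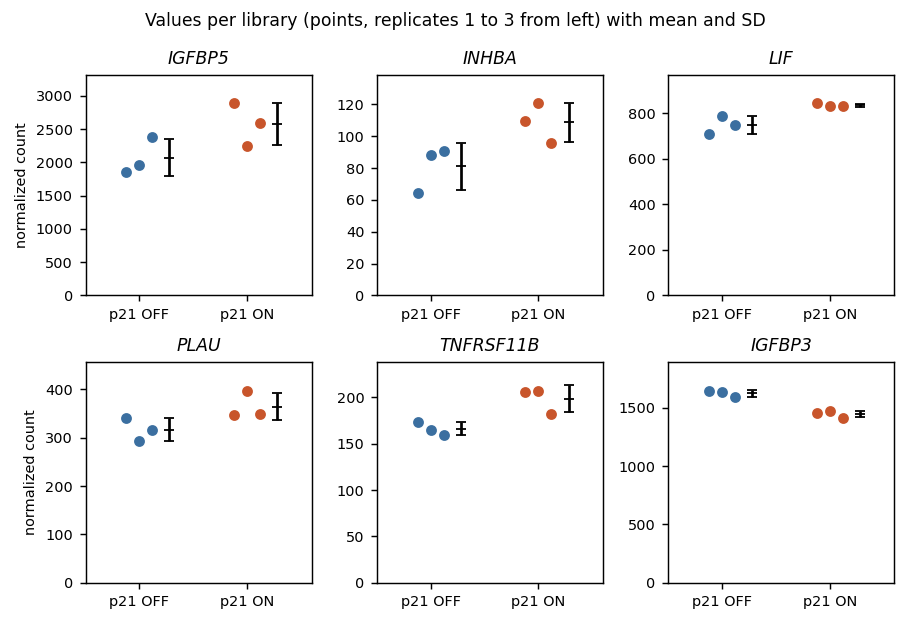
Normalized counts of 6 genes in the p21 OFF (blue) and p21 ON (orange) libraries, with mean and SD beside the points and axes that start at 0. The groups overlap for IGFBP5, and for INHBA, LIF, PLAU and TNFRSF11B each p21 ON library lies above all p21 OFF libraries, while for IGFBP3 each lies below.

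The highest levels of the list were those of 3 genes that control matrix breakdown. TIMP2, MMP2 and MMP14 together held 75.4% of the summed level of all 48 genes. MMP14 is a membrane-anchored metalloproteinase that activates the gelatinase MMP2 at the cell surface, and TIMP2 is the inhibitor that both bridges them and blocks them. Per kilobase of exon their levels were 6931 for TIMP2, 5651 for MMP2 and 4203 for MMP14, the highest of the list.

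None of these was called. TIMP2 had 42493, 45696 and 42842 normalized counts with p21 OFF and 42493, 42323 and 42342 with p21 ON. In further digits the p21 ON values lay below all p21 OFF values, but replicate 1 of both groups was 42493 as printed. The log2 fold change was -0.04 (95% interval -0.17 to 0.09). MMP2 had 25721, 26788 and 28052 with p21 OFF and 25775, 26483 and 26752 with p21 ON, a log2 fold change of -0.03 (95% interval -0.16 to 0.10). MMP14 had 19123, 19120 and 19928 with p21 OFF and 19155, 19181 and 20061 with p21 ON, a log2 fold change of 0.0055 (95% interval -0.12 to 0.13). For MMP2 and MMP14 the groups overlapped. The ratio of MMP2 to TIMP2 within a library was 0.615 ± 0.035 with p21 OFF and 0.621 ± 0.013 with p21 ON (SD, n = 3 each, exact two-sided permutation test, p = 0.9). This ratio was chosen after the values were seen.

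The metalloproteinases best known from the SASP of fibroblasts were weak. The interstitial collagenase MMP1 had no read, the stromelysin MMP3 had 8 reads in p21 OFF and 5 in p21 ON libraries, and the gelatinase MMP9 had 9 and 15. MMP13, a collagenase of cartilage and bone, had 35.2, 37.5 and 46.6 normalized counts with p21 OFF and 38.4, 53.6 and 48.5 with p21 ON. The groups overlapped (log2 fold change 0.23, 95% interval -0.18 to 0.63). Among the inhibitors, TIMP1 had 2974, 2855 and 2637 with p21 OFF and 2532, 2787 and 2782 with p21 ON. SERPINE2, which blocks thrombin and plasminogen activators, had 1491 ± 61.8 and 1476 ± 29.8 (SD, n = 3 each). The intervals of TIMP1 (-0.20 to 0.07) and SERPINE2 (-0.14 to 0.12) were narrow and held 0, and SERPINB2 had no read.

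In the plasminogen system PLAU, the urokinase that turns plasminogen into plasmin, had 340.4, 293.7 and 315 normalized counts with p21 OFF and 347, 397 and 349 with p21 ON. Every p21 ON library was above every p21 OFF library, by 0.20 on the log2 scale (95% interval 0.01 to 0.39, adjusted p = 0.110 by limma). PLAU was called higher with the length correction (0.27) and without p21 OFF replicate 1 (0.26). Its receptor PLAUR had 2774, 2746 and 2322 with p21 OFF and 2362, 2681 and 2380 with p21 ON, with overlapping groups. The ratio of PLAU to PLAUR within a library was 0.123, 0.107 and 0.136 with p21 OFF and 0.147, 0.148 and 0.147 with p21 ON. These ranges did not overlap, and an exact permutation test (two-sided) gave p = 0.1, below which this design cannot go. Groups of this size that do not overlap always give that value, so the test adds nothing here. The ratio was chosen after the values were seen. PLAT, the tissue activator, had 15.1, 7.81 and 13.3 with p21 OFF and 29.1, 21.9 and 12.4 with p21 ON. Its log2 fold change of 0.73 was the largest of the 23 and also the least certain (95% interval 0.01 to 1.45, adjusted p = 0.129 by limma), and it rested on 40 reads in p21 OFF and 56 in p21 ON libraries.

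Among the growth factors 2 of 8 were expressed. VEGFA, which drives the growth of blood vessels, had 2665, 2568 and 2427 normalized counts with p21 OFF and 2681, 2436 and 2631 with p21 ON, a log2 fold change of 0.02 (95% interval -0.11 to 0.15). VEGFC, its counterpart for lymph vessels, had 397, 421 and 370.3 with p21 OFF and 400.5, 389 and 429 with p21 ON, a log2 fold change of 0.04 (95% interval -0.14 to 0.21). The groups of both genes overlapped. The EGF family ligands AREG and EREG and the MET ligand HGF had no read, and NRG1, another EGF family ligand, had 17 reads in p21 OFF and 11 in p21 ON libraries. FGF2 had 12 and 10 reads and FGF7 had 2 and 1.

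TNFRSF11B encodes osteoprotegerin, the decoy receptor with which osteoblasts restrain bone resorption. It had 173, 165 and 159.7 normalized counts with p21 OFF and 206, 207 and 181.5 with p21 ON. The groups did not overlap, the log2 fold change was 0.25 (95% interval 0.04 to 0.47), and the adjusted p was 0.0816 by limma. It was called higher when libraries were scaled by size alone (0.30) and with the length correction (0.34). The adhesion molecule ICAM1 had 12 reads in each group, and ANGPTL4 and STC1, genes of lipid and calcium handling, had at most 3 reads in a group.

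Longer genes tended to have higher log2 fold changes (Spearman correlation 0.28 over 12678 tested genes with a known exonic length, which share the 6 libraries and are not independent). The median exonic length of the 23 secreted factors was 4457 bases, that of IGFBP5 was 6466 and that of INHBA was 8284. With this dependence on length removed in each library, an alternative chosen after seeing the data, 4 secreted factors were called higher (IGFBP5, LIF, PLAU and TNFRSF11B) and none lower.

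Genes around the secreted factors were read from 3 further lists. The first held 39 regulators of the secretory program, of which 37 were tested, 4 were called higher and 4 lower, 21.6% in all and near the 23.2% of all genes tested. The number called lower was 2 without ON replicate 1 and 2 without ON replicate 2. HMGB2, a chromatin protein that keeps SASP genes accessible in senescent cells, had 2518, 2208 and 2093 normalized counts with p21 OFF and 1021, 1072 and 969 with p21 ON, a log2 fold change of -1.15 (adjusted p = 1.14e-09 by limma). HMGB1, its paralog, fell by 0.55 on the log2 scale (adjusted p = 2.97e-05 by limma). TNFAIP3, an inhibitor of NF-κB signalling and itself an NF-κB target, had 11.3, 22.7 and 17.7 with p21 OFF and 46.6, 31.7 and 39.9 with p21 ON, a rise of 1.18 on the log2 scale (adjusted p = 0.00388 by limma). TNFAIP3 had 9 reads in p21 OFF replicate 1, so it was not tested where at least 10 reads were required in every library. Regulators called higher numbered 3 under that filter and 3 by DESeq2. The receptor gene NOTCH1 rose by 0.52. The remaining calls, named after their values were seen, were KMT2A, listed as MLL (0.51), and NFKB2 (0.32), which rose, and CEBPB (-0.24), which encodes C/EBPβ, and MAPKAPK2 (-0.19), which fell. The NF-κB subunit gene RELA had 1231, 1532 and 1424 with p21 OFF and 1354, 1351 and 1478 with p21 ON and was not called. The subunit genes REL (0.52, adjusted p = 0.0987 by limma) and RELB (0.39, adjusted p = 0.0761 by limma) were higher with p21 ON. REL had 71.6, 172 and 171 with p21 OFF and 184, 179 and 191 with p21 ON. Its difference thus rested largely on the low value of p21 OFF replicate 1. NFKB1 (-0.14, adjusted p = 0.143 by limma) was lower. Their groups did not overlap, but none of them was called. The NF-κB signalling genes NFKBIA (-0.01), NFKBIE (-0.03), NFKBIB (-0.20) and NFKBIZ (0.32) were not called either. NF-κB activity was not tested. RELA, REL, RELB, NFKB1 and these NFKBI genes are named here after their values were seen.

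The second list held 43 genes, mostly receptors and binding partners of the secreted factors. Of these, 29 were tested, 5 were called higher and 1 lower, 20.7% in all and likewise near the share over all genes. FGFR3 rose by 0.37, LRP1, a scavenger receptor for protease-inhibitor complexes, by 0.39, and EGFR by 0.42. EGFR had 654, 912 and 944 with p21 OFF and 1158, 1045 and 1118 with p21 ON. LRP1 had 2597, 3301 and 3213 with p21 OFF and 4263, 3337 and 4376 with p21 ON. In both genes p21 OFF replicate 1 was the lowest library. TNFRSF11A rose by 0.87 from a low level (25.1, 16.4 and 18.5 with p21 OFF and 40.7, 32.9 and 37.1 with p21 ON). It encodes the RANK receptor, whose ligand is not among the secreted factors described here. The median of the list was 0.12. Its tested genes had a median exonic length of 9842 bases, against 4457 for the secreted factors. After the length trend was taken out, 5 receptors were called higher, and the part of length in the median was not tested. LIFR, the receptor of LIF, had 378, 410.1 and 404 normalized counts with p21 OFF and 331, 336 and 327 with p21 ON, a log2 fold change of -0.26 (adjusted p = 0.0256 by limma). LIFR is named here after its values were seen, as is INSR, the insulin receptor gene, which rose by 0.40. The number called higher was 2 without p21 ON replicate 1 and 2 without p21 ON replicate 3, and LIFR was not called in either of these, without OFF replicate 2 or 3, by DESeq2, or with scaling by library size alone.

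The third list held 50 other secreted or shed proteins often tied to senescence. Of these, 28 were tested, 6 were called higher and 1 lower, 25% in all, which is again near the 23.2% of all genes tested. The growth factor gene PDGFB rose by 0.85, the endothelin gene EDN1 by 0.49 and FST, which encodes the activin-binding protein follistatin, by 0.63. FST had 52.7, 46.9 and 59.9 with p21 OFF and 87.3, 84.1 and 77.0 with p21 ON, so its groups did not overlap. FAS, the death receptor gene and the 1 called lower, changed by -0.63, was not called by DESeq2, without OFF replicate 1 or without ON replicate 1, and is named after its values were seen.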

How the data were processed

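RNA sequencing values were analysed for 6 libraries of SaOS2 cells, 3 p21 OFF and 3 p21 ON, grouped by the labels. The authors prepared stranded polyA libraries, sequenced single-end reads in one lane, mapped them to hg19 with STAR, counted them with HTSeq and normalized them with DESeq2. Versions, and whether counting used strand, are not given in the sources used here. The deposited values are a signal that the authors made by dividing each count by a size factor. Dividing by the smallest step of a library gave whole numbers (within 0.01) for 100% of values, and thus the reads, 12795490 to 21975045 per library. On these reads, edgeR called 1401 genes higher and 1647 lower.

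The planned test for normalized values was used: limma 3.58.1 (lmFit, eBayes with trend, R 4.3.3) on log2(normalized count + 1), without covariates, over 13255 genes with a mean of at least 10. On that scale the changes of weak genes are understated. Replicates differed by more than sampling noise (chi-square per gene 2.71 to 9.26), so none was counted as a copy. The labels do not say whether the libraries came from separate cultures, so p-values measure the spread between these libraries. Limits for genes without reads use 3 counts per group and cover counting error only. In bulk RNA, fewer expressing cells and less RNA per cell cannot be told apart.

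Alternatives were edgeR 4.0.16 and DESeq2 1.42.0 on the reads, library size or TMM scaling, pseudocounts of 0.1 and 10, no filter, at least 10 reads in every library, a replicate block, each library left out, and removal of a length trend (loess, span 0.5). The limma fit was run on simulated counts, with an assumed spread between libraries and no length trend. The edgeR and DESeq2 fits and the length correction were not tested in this way. Positions, exonic lengths and promoters came from GENCODE release 44 on GRCh37, to which 21297 gene names were matched, some by an older symbol. Exons of 7 of the 23 expressed genes (among them INHBA, IGFBP5, LIF and PLAU) overlap genes on the opposite strand.

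The members and lists were chosen with earlier results of these data known. Named genes were the members called, of the others the 6 with the largest absolute log2 fold change and the 6 with the highest mean, up to 4 called genes per further list, and CDKN1A. One gene that this rule names is not reported here. The remaining expressed members are also given with values. The motifs, the ratios and the genes so marked were chosen after seeing values.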

Additional observations from a re-analysis of the deposited data

How the results depend on the processing

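No call among the 48 genes held under every alternative. Secreted factors called higher numbered 1 by edgeR, 1 by DESeq2, 1 without a filter on low values, 4 after the length trend was taken out and 4 with scaling by library size alone, against 2, and 0 to 2 with each library left out (0 without p21 ON replicate 1 and 0 without p21 ON replicate 3). Those called lower numbered 1 with at least 10 reads in every library, and 0 to 0 with each library left out.

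The median log2 fold change of the 23 genes was 0.048 after the length trend was taken out and 0.053 with scaling by library size alone, which moved the median of all genes from 0.0056 to 0.049 and the calls over all genes to 2034 higher and 1194 lower. With each library left out it ran from -0.015 to 0.049. Without p21 ON replicate 1 the calls over all genes were 692 higher and 888 lower, and without p21 ON replicate 3 they were 739 and 1076.

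Regulators called lower numbered 2 with scaling by library size alone and 2 to 5 with each library left out. Receptors called higher numbered 8 with scaling by library size alone and 2 to 7 with each library left out, and receptors called lower 0 by DESeq2, 2 after the length trend was taken out, 0 with scaling by library size alone and 0 to 1 with each library left out. Other secreted factors called lower numbered 0 by DESeq2 and 0 to 1 with each library left out.

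For the 23 genes and CDKN1A, 344 of 383 comparisons with an alternative kept their direction and their side of the threshold, 11 lost a call, 7 gained one and 21 changed sign, none of a called gene. Without the length trend VEGFA was at -0.088, IGFBP6 at 0.048 and TIMP1 at 0.052. With scaling by library size alone the values were 0.017 for MMP2, 0.030 for SERPINE2 and 0.0014 for TIMP2. With each library left out, the log2 fold change ran from -0.019 to 0.058 for CSF1, -0.020 to 0.058 for VEGFA, -0.011 to 0.081 for VEGFC, -0.0029 to 0.091 for IGFBP4, -0.058 to 0.0047 for MMP2, -0.016 to 0.025 for MMP14 and -0.049 to 0.0057 for SERPINE2. The cause of these changes was not tested.

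The replicate numbers did not pair the libraries (correlations of same-numbered deviations from the group means -0.06, -0.02 and -0.05). With that number as a replicate block, the fit called 2 secreted factors higher and 0 lower, and 1407 genes higher and 1513 lower over all genes.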
